A study of Mus musculus with 2 samples.

Results

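Il17a, Rora, Ahr and Ccr6 are 4 genes associated with T helper 17 (Th17) cells. They are described here in memory T helper 2 (Th2) cells sorted by whether they made interleukin-5 (IL-5). All probe sets that the platform annotation assigns to one of these symbols alone were taken, which gave 13 probe sets for 4 of the 18193 genes named on the array. A probe set is a group of short probes that together measure 1 transcript sequence. The genes were chosen by their signals on these same arrays, in the comparison of IL-5+ with IL-5- cells, so their differences are a description and have no test. DO11.10 T cell receptor transgenic CD4 T cells, which recognise an ovalbumin (OVA) peptide, were taken from BALB/c spleen at a purity above 98%. They were stimulated with that peptide for 6 days under Th2 conditions, with IL-2 at 25 U/ml and IL-4 at 100 U/ml, and transferred into BALB/c nu/nu mice. These recipients lack a thymus and thus most T cells of their own but keep B cells, natural killer cells and myeloid cells. The memory cells were collected from the spleen 30 days later and separated by flow sorting. By their labels, both groups share the strain, the transgenic receptor, the culture and the recipient, and differ by the sort. There was 1 array of IL-5+ cells and 1 array of IL-5- cells. The labels give no age and do not say how many mice were pooled. They also do not give the stimulation or staining used for the IL-5 sort. Whether the signals are those of resting or restimulated cells is therefore not known.

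Th17 cells defend mucosal surfaces against bacteria and fungi. Their hallmark cytokine, interleukin-17A, is encoded by Il17a and acts on epithelial and stromal cells to recruit neutrophils. The nuclear receptor RORalpha (Rora) binds DNA at the motif AGGTCA preceded by A and T bases and helps to switch on Il17a. The aryl hydrocarbon receptor (Ahr) is a transcription factor activated by small molecules from diet, microbes and tryptophan, and it pairs with ARNT on DNA that holds the core GCGTG. CCR6 is the receptor for the chemokine CCL20 and is used by Th17 cells to enter inflamed tissue. Rora is also needed for group 2 innate lymphoid cells, which make IL-5 and IL-13.

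The stretches before the start sites of Il17a and Ccr6 are shown because both hold the ROR core AGGTCA, while Il17a was 5.34-fold higher in IL-5+ cells and Ccr6 was not higher. They are RefSeq sequences of the C57BL/6J assembly GRCm38.p6, plus strand, 5′ to 3′, and may differ from BALB/c. The Il17a stretch is chr1:20730655-20730904 and ends at the base before the start site. The Ccr6 stretch is chr17:8235793-8236040. It stops short of the base before its start site, which is at 8236043, because only bases before the annotated gene were kept. Capitals mark the motif, which lies on the minus strand in both and so reads TGACCT, from -120 to -115 in Il17a and from -44 to -39 in Ccr6, counted from the start site.
Il17a: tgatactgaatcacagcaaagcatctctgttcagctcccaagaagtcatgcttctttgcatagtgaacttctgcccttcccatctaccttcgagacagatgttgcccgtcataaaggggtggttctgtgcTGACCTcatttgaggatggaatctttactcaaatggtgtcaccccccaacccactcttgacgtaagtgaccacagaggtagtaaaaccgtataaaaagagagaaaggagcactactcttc
Ccr6: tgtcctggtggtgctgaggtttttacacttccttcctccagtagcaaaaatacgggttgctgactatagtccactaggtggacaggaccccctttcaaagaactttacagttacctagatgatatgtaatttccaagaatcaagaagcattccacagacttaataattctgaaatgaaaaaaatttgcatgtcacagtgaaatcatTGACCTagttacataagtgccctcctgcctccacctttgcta

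On either strand, AGGTCA was present in the 250 bases before the start in 14% of 32851 promoter windows of all genes. It was not in the window of Rora or in the second Ccr6 window. The AHR core GCGTG was present in 28.2% of all windows and in the window of Rora, where its minus-strand match began at -167, but in none of the windows of Il17a and Ccr6. These matches are descriptions of letters and were not tested for binding. The promoter of Ahr was not searched.

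With 1 array per group, no difference had a replicate check or a p-value. The result for each probe set was a log2 ratio, the IL-5+ signal over the IL-5- signal. Before that, any signal under 36.3, the 40th percentile of all values, was raised to this floor. The 2 arrays had similar median signals, 57.2 for IL-5+ and 60.4 for IL-5- cells. The sort was visible in its own marker, as Il5 had a signal of 37085 in IL-5+ and 67.4 in IL-5- cells. The defining T cell genes were well above the floor on both arrays, with Cd3e at 1952 in IL-5+ and 2474 in IL-5- cells and Cd4 at 455 and 471. The disagreement between probe sets of 1 gene is the only error these data offer: its SD on the log2 ratio was 0.55 at mean signals up to 112.8, 0.37 up to 500, 0.21 up to 2000 and 0.13 above. This SD leaves out variation between mice and sorts.

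Of the 13 probe sets, 10 were above the floor on both arrays, 1 on the IL-5- array alone and 2 (both of Rora) on neither. Of the 11 that gave a ratio, 8 were higher in IL-5+ cells by 2-fold or more and 0 were lower by as much. Over all 24137 probe sets with a ratio and 1 symbol, 2.95% were 2-fold higher and 3.89% were 2-fold lower. The members were selected on this comparison, so nothing is read from the contrast of these shares. Of the 8, 6 belonged to Rora, 1 to Il17a and 1 to Ahr.

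**Figure D1:**
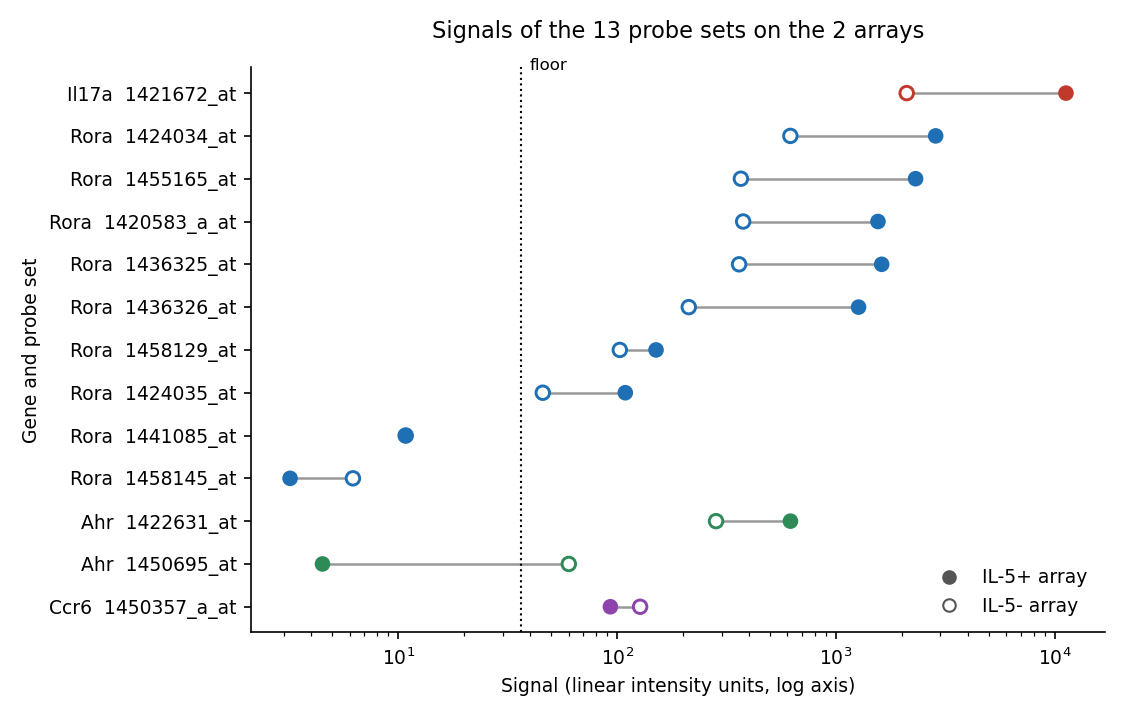
Signal of each of the 13 probe sets on the IL-5+ array (filled points) and on the IL-5- array (open points), in linear intensity units on a log axis; each point is 1 array and the dotted line is the floor of 36.3. The Il17a probe set and 5 Rora probe sets lie far to the right in IL-5+ cells, the 2 Ahr probe sets run in opposite directions, and the Ccr6 points lie close together.

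Il17a, the cytokine gene of the group, had a signal of 11242 in IL-5+ cells and 2104 in IL-5- cells. The signal was thus 5.34-fold higher in IL-5+ cells, a log2 ratio of 2.42. It was nonetheless far above the floor in cells sorted as IL-5-. Only 16 of the 13133 genes above the floor on at least 1 array had a higher ratio, which places Il17a at rank 17. It was measured by 1 probe set, so no second probe set checks the value. At its brightness, probe sets of the same gene differed with an SD of 0.13. The ratio stayed between 2.39 and 2.50 under the other scalings and floors.

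Rora, the nuclear receptor gene, had the most probe sets of the 4 genes, 9 in all. Its brightest had a signal of 2854 in IL-5+ cells and 619 in IL-5- cells, a log2 ratio of 2.21 (4.61-fold), at rank 25 of all genes. The next had 2310 and 368 and gave the largest ratio, 2.65 (6.29-fold). The remaining bright ones had 1555 and 376 (ratio 2.05), 1617 and 361 (2.16), and 1268 and 212 (2.58). All 5 of these probe sets were therefore over 4-fold higher in IL-5+ cells, with a mean log2 ratio of 2.33 ± 0.27 (SD over n = 5 probe sets, which are not replicates of the cells). A pair of them was designed on the same source record, so they are not all separate sequences.

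The dimmer Rora probe sets gave smaller differences in the same direction. One with signals of 109 in IL-5+ and 45.7 in IL-5- cells had a ratio of 1.25, which became 0.82 when a constant of 36.3 was added to both signals instead of the floor. It was designed on the same source record as the brightest Rora probe set, which had a ratio of 2.21. Another with 151 and 103 had a ratio of 0.55 (1.46-fold), under 2-fold. The last pair stayed under the floor on both arrays, at 10.8 and 10.8 and at 3.2 and 6.2. Within the gene, the 7 ratios therefore ran from 0.55 to 2.65 with a median of 2.16, and every one was above 0. Which transcript parts the dim probe sets measure was not analysed here.

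Ahr, the ligand-activated transcription factor, was measured by a pair of probe sets from the same source record, and they disagreed. The brighter had a signal of 619 in IL-5+ cells and 283 in IL-5- cells, a log2 ratio of 1.13 (2.19-fold higher), at rank 271. The other had 4.5 in IL-5+ and 60.1 in IL-5- cells, so it was above the floor in IL-5- cells alone and lower in IL-5+ cells by 1.66-fold at the least (log2 bound -0.73). Without a floor its ratio was -3.74. The median of both was 0.20, and the call of Ahr as 2-fold higher rests on the brighter probe set. Both signals of the dim probe set were under 112.8, the level under which 60% of all signals lay.

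Ccr6, the chemokine receptor gene, was dim and close to equal on both arrays. Its single probe set had a signal of 93.1 in IL-5+ cells and 127 in IL-5- cells, a log2 ratio of -0.45 (1.37-fold lower in IL-5+ cells). This is smaller than the SD of 0.55 between probe sets of 1 gene in its band of brightness. Its 2 signals lie on either side of 112.8, the upper edge of that band, and the ratio is larger than the SD of 0.37 in the next band. The Ccr6 ratio ran in the opposite direction to those of Il17a and Rora, and 17.0% of all genes had a lower ratio. With a floor at 112.8 the ratio was -0.17.

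**Figure D2:**
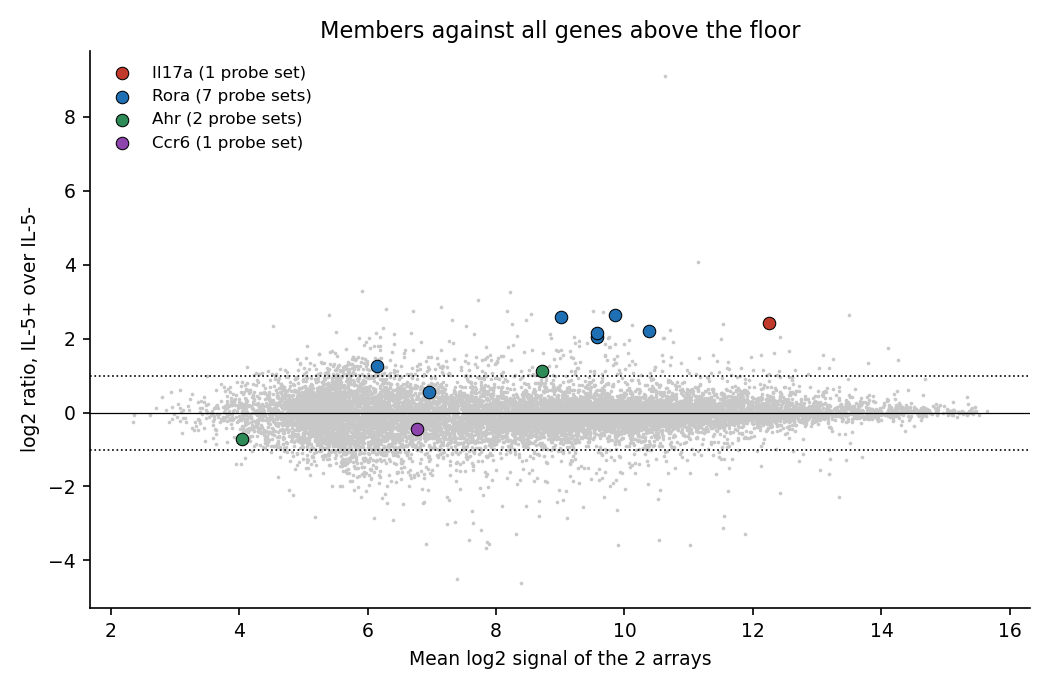
Log2 ratio (IL-5+ over IL-5-) against the mean log2 signal of the 2 arrays for the 13133 genes above the floor (grey points, 1 probe set per gene) and for the 11 probe sets of the 4 genes with a ratio (coloured points); dotted lines mark 2-fold. Il17a and 5 Rora probe sets lie above 2, the brighter Ahr probe set at 1.13, and Ccr6 at -0.45 within the grey band.

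The genes around these 4 were taken from lists and described by each gene's brightest probe set. Over all 13133 genes, 2.85% were 2-fold higher in IL-5+ cells and 4.01% were 2-fold lower, with a median log2 ratio of -0.048. Among other Th17 cytokines and chemokines, 6 had a probe set and 1 was 2-fold higher and 1 lower, with a median of 0.41. Csf2, encoding the myeloid growth factor GM-CSF, was higher, at 32111 in IL-5+ and 12066 in IL-5- cells (2.66-fold). Il21, a helper cytokine that sustains Th17 cells, was lower at 369 and 896 (log2 ratio -1.28), although its other probe set stood at 0.44. Lif (698 and 459), Tnf (748 and 1080) and Ccl20, the ligand of CCR6 (476 and 318), were under 2-fold. Il17f and Il22, the cytokine genes usually expressed beside Il17a, were not analysed here.

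The other IL-17 family ligands were dim. Il17b was at 48.5 in IL-5+ and 12.2 in IL-5- cells, and Il17d (6.8 and 19.8) and Il25 (3.9 and 17.4) were under the floor on both arrays. Of 15 genes for IL-17 receptors and their signalling, 14 gave a ratio, with 1 higher, 0 lower and a median of 0.087. The higher one was Nfkbiz, a nuclear cofactor induced by IL-17, at 4523 and 1724 (log2 ratio 1.39). Its 3 probe sets ran from -0.49 to 1.39 with a median of 0.38. Il17ra, the common receptor subunit, was nearly equal at 1044 and 1103 at its brighter probe set, and the other stood at -0.93. The brightest of the rest, Tnfaip3 (5458 and 4373), Usp25 (2589 and 2618) and Cebpb (1576 and 1950), were also under 2-fold.

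Transcription factors of the Th17 programme were mixed. Apart from Rora and Ahr, 12 had a ratio, 2 of them 2-fold higher and 2 lower, with a median of 0.23. The AP-1 gene Fosl2 (863 in IL-5+ and 417 in IL-5- cells, log2 ratio 1.05) and Nfkbiz were higher, though the median of the Fosl2 probe sets was 0.79. Ikzf3, which encodes the Ikaros family factor Aiolos, was lower at 502 and 2120 (log2 ratio -2.08), and all 3 of its probe sets were lower, from -2.08 to -1.01. Maf stood at 819 and 1649 (-1.01) and was within 2-fold after any of the 3 other scalings. The brightest others, Satb1 (17652 and 19724), Hif1a (14353 and 14553) and Irf4 (9980 and 14340), were under 2-fold.

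Receptors for the cytokines that start or sustain Th17 cells were lower or little different in IL-5+ cells. Of 8 with a ratio, 3 were 2-fold lower and 0 higher, with a median of -0.34 that became -0.12 with every gene taken at the middle of its probe sets. The IL-6 receptor genes Il6ra (103 in IL-5+ and 483 in IL-5- cells, log2 ratio -2.24) and Il6st (164 and 623, -1.92) were among the 3. The third, the IL-21 receptor gene Il21r, had 202 and 738 (-1.87). For Il6ra the other probe set was at -0.18, and for Il6st 1 of 4 probe sets was at 0.047. The signalling kinase gene Jak2 (9717 and 8093) and the TGF-beta receptor genes Tgfbr2 (2621 and 2839) and Tgfbr1 (1273 and 1784) were under 2-fold. The IL-1 receptor gene Il1r1 did not reach the floor on either array, and Il23r was not analysed here.

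Genes known to restrain Th17 differentiation included 5 of 13 with a signal lower by 2-fold or more in IL-5+ cells and 0 with a higher one, with a median of -0.22. Socs3, which blocks IL-6 signalling through STAT3, was at 496 in IL-5+ and 1772 in IL-5- cells (log2 ratio -1.84), and its 3 probe sets ran from -1.84 to -1.33. Tbx21, the Th1 factor gene, was at 1053 and 2971 (-1.50). Eomes, the related T-box gene, was at 641 and 1472 (-1.20). Irf8 was at 1958 and 4079 (-1.06) and came under 2-fold after scaling to the array medians (-0.98). Foxp3, the regulatory T cell factor gene, was dim, at 39.6 and 94.6 (-1.26, and -0.79 with the added constant). The brightest others, Ets1 (18075 and 17128), Stat5a (5957 and 6384) and Gfi1 (4257 and 3643), were under 2-fold.

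Genes of the circadian clock, many of which RORalpha and its opponents NR1D1 and NR1D2 control through shared sites, were mixed. With the ROR family and cofactors but without Rora, 17 gave a ratio, 1 of them 2-fold higher and 2 lower, with a median of -0.23. Arntl, the gene for the clock activator BMAL1, was at 535 in IL-5+ and 266 in IL-5- cells (log2 ratio 1.01), and its other probe set gave 0.47. Nr1d1, the gene for a repressor that competes with RORs, had 24.8 and 111.9 and was at least 3.08-fold lower. Npas2 had 34.8 and 125.7 and was at least 3.46-fold lower, but with a floor of 112.8 its ratio was -0.16 and Nr1d1 had none. Nrip1 (4362 and 2849), Ncoa2 (2343 and 1826) and Nr1d2 (1202 and 1730) were under 2-fold.

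**Figure D3:**
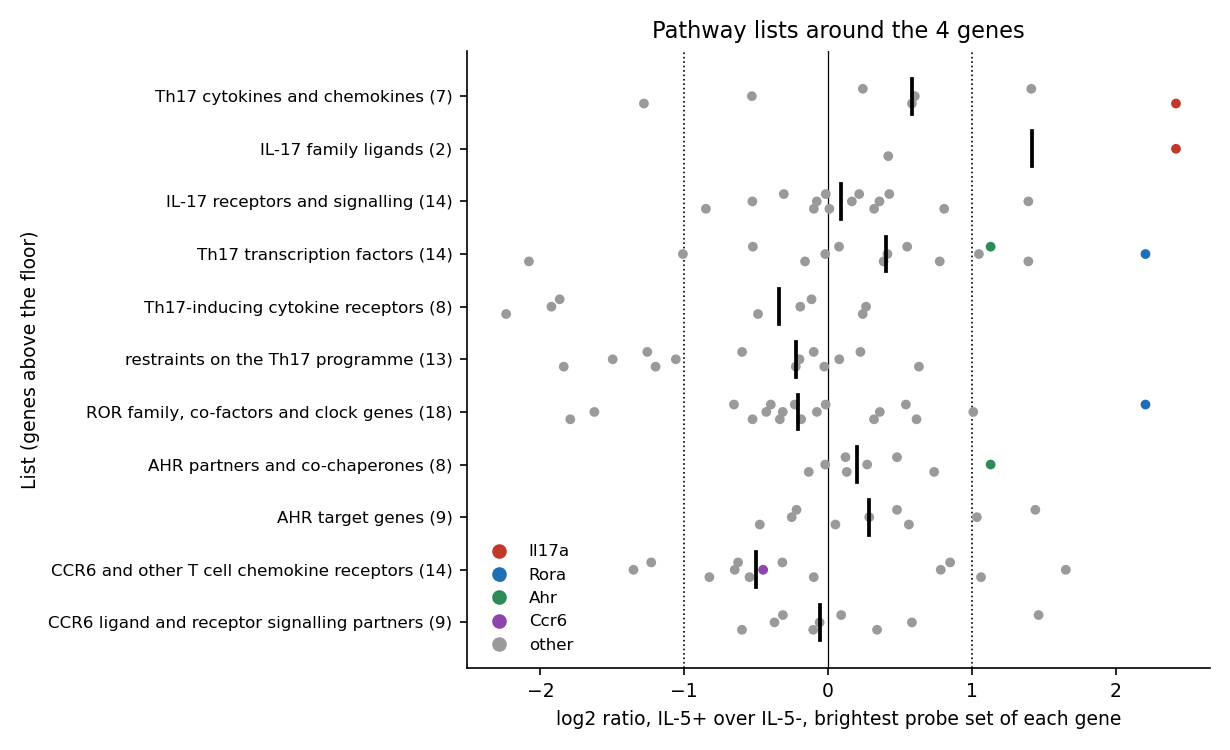
Log2 ratio (IL-5+ over IL-5-) of the brightest probe set of each gene above the floor in 11 lists, with the number of such genes in parentheses; each point is 1 gene, thick bars are list medians and dotted lines mark 2-fold. Il17a and Rora lie to the right of every other point in their lists, and the 8 points of the Th17-inducing receptors include 3 at or below -1.87.

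The partners that AHR needs differed by less than 2-fold. Without Ahr, 7 partners and relatives gave a ratio, 0 of them 2-fold higher or lower, with a median of 0.13. Its DNA partner gene Arnt, also a PAS family gene, was at 435 in IL-5+ and 400 in IL-5- cells. The chaperone gene Hsp90aa1 (30417 and 27805) and the related factor genes Hif1a and Epas1 (535 and 587) were under 2-fold. Of 9 AHR target genes with a ratio, 2 were higher and 0 lower, with a median of 0.29. Tiparp, which feeds back on AHR, was at 1060 and 518 (log2 ratio 1.03), and its 3 probe sets ran from 0.73 to 1.07. Cyp1b1, a cytochrome P450 gene, was at 98.5 and 29.7 and thus at least 2.71-fold higher, but both signals were under 112.8. The best known target, Cyp1a1, was dim at 40.8 and 56.7. Slc7a5 (6643 and 5449), Nfe2l2 (789 and 941) and Nqo1 (84.7 and 57.4) were under 2-fold.

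Ccr6 was set beside other chemokine receptor genes of T cells. Without it, 13 gave a ratio, 2 of them 2-fold higher and 3 lower, with a median of -0.55. Cxcr6, a receptor of tissue T cells, was higher at 10758 in IL-5+ and 3423 in IL-5- cells (log2 ratio 1.65). The Th2 receptor gene Ccr8 was at 224 and 107 (1.06), and with a floor of 112.8 it came to 0.99. Ccr7, the receptor gene for entry into lymph nodes, was lower at 4725 and 22853 (-2.27). The dim genes Ccr10 (28.6 and 92.7, at least 2.55-fold) and Cxcr5 (24.1 and 85.1, at least 2.34-fold) were lower. Gpr183 (2593 and 2779), Cxcr3 (1125 and 1992) and Cxcr4 (740 and 1160) were under 2-fold. Of the CCL20 and receptor signalling genes, 9 gave a ratio and 1 was 2-fold higher, namely Rgs2, a regulator of G protein signalling, at 3798 and 1378 (log2 ratio 1.46, and 1.45 to 1.79 over 3 probe sets). Rgs1 (6729 and 8713), Gnai3 (6094 and 4814) and Gnai2 (3488 and 3275) were under 2-fold, and that list had a median of -0.059.

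For scale, the Th2 genes on the same arrays included differences above and below those of Il17a and Rora. Of 7 with a ratio, 4 were 2-fold higher and 1 lower, and the 4 include Il5, on which the cells were sorted. Il13 and Pparg stood at 2.63 and 2.66, close to the 2.42 of Il17a, and Il4 at 1.74. Gata3 (5968 and 3570) and Stat6 (3561 and 3441) were under 2-fold, and Il4ra (543 and 1157) was lower. With only 2 arrays the pattern of a gene is 1 number, so likeness was the difference in log2 ratio among 6128 genes above the floor on both arrays and at 500 or more on 1. Nearest to Il17a were Serpinb9b (2.39), Ifitm2 (2.39) and Bmpr2 (2.36), within 0.062. Nearest to Rora were Phlda1 (2.23), Lgals7 (2.13) and Slc17a6 (2.07), within 0.13. Nearest to Ahr were St3gal6, Atf6 and Mllt11 (each 1.13), and nearest to Ccr6 were Ing2, Castor1 and Klhdc2 (each -0.45). Many genes share the ratio of Ahr or Ccr6, so those names carry little information.

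Other cells that could carry Il17a or Rora were checked by their markers. Of 8 gamma-delta T cell markers, 3 had a probe set, and their signals summed to 71.4 in IL-5+ and 105 in IL-5- cells. Sox13 was at 41.4 and 38.4, and Blk, at 8.7 and 48.0, reached the floor in IL-5- cells alone. Cd163l1 did not reach the floor on either array, and Trdc was not analysed here. Of 8 markers of group 2 innate lymphoid cells, 6 had a probe set, and their sums were 13051 and 5818. Nearly all of this came from Id2, which T cells express too and which was 2-fold higher in IL-5+ cells (12739 and 5519). Of the 5 with a ratio, 3 were above 0 and 2 below. Klrg1 was at 200 and 144, and Rxrg, at 42.2 and 22.7, reached the floor in IL-5+ cells alone. Zbtb16 was at 49.4 and 63.9 and Il17rb at 18.4 and 65.4, while Arg1 did not reach the floor on either array. Of 8 markers of group 3 innate lymphoid cells, 5 had a probe set, with sums of 19839 and 8899. Tnfsf11 (14961 and 5075) and Nrp1 (1607 and 471), both also T cell genes, were higher at their brightest probe sets, although the 4 log2 ratios of Nrp1 ran from -0.24 to 2.67. Ncr1 and Il1r1 were under the floor on both arrays. The markers of B cells summed to 265 and 1058, most of the latter from Ighm at 64.4 and 813. The 5 log2 ratios of Ighm probe sets ran from -3.66 to 0.16, with a median of -0.64. Of 5 B cell markers with a ratio, 2 were above 0 and 3 below, with Ms4a1 nearly equal at 60.7 and 62.1. Cd79a, Cd79b and Blnk did not reach the floor on either array. Those of monocytes and macrophages summed to 566 and 517, of neutrophils to 116 and 154 and of mast cells and basophils to 574 and 256. Of 6 monocyte and macrophage markers with a ratio, 4 were below 0, among them Csf1r at 106 and 125. The 2 above 0 were Cd68 (109 and 75.8) and Ccr2 (253 and 140), which is also in the list of T cell chemokine receptors. The 2 neutrophil markers with a ratio had the higher signal in IL-5+ cells, Elane at 62.2 and 48.1 and Csf3r at 37.8 and 31.6. S100a8, S100a9 and Mpo did not reach the floor on either array. Of the mast cell and basophil markers, Hdc was at 353 and 10.4 and made up most of the IL-5+ sum. Kit (123 and 106) and Gata2 (58.6 and 56.6) were nearly equal, and Cpa3, at 21 and 50.5, reached the floor in IL-5- cells alone. Mcpt8, Fcer1a and Ms4a2 did not reach the floor on either array. Markers of dendritic cells with MHC class II summed to 636 and 918, of CD8 T cells to 347 and 245, and of plasma cells to 25669 and 27845, nearly all of it Xbp1 and Irf4, which activated T cells express. Of 7 dendritic cell and MHC class II markers with a ratio, 6 were below 0, with H2-Aa at 51 and 156. The 1 above 0 was Zbtb46, at 150 and 79.1. Of the CD8 T cell markers, Cd8b1 was at 280 and 168 and Cd8a at 66.9 and 76.7. Markers of natural killer cells summed to 1048 and 1692, most of it Eomes, whereas Klrd1 (145 and 91.7), Prf1 (129 and 77.9) and Fcer1g (61.4 and 4.7, under the floor) had the higher signal in IL-5+ cells. The markers of CD4 T cells summed to 46573 and 57854. The part of other cells in the differences of Il17a, Rora and Ahr was not tested. In such bulk samples, more cells expressing a gene and more RNA per cell cannot be told apart.

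**Figure D4:**
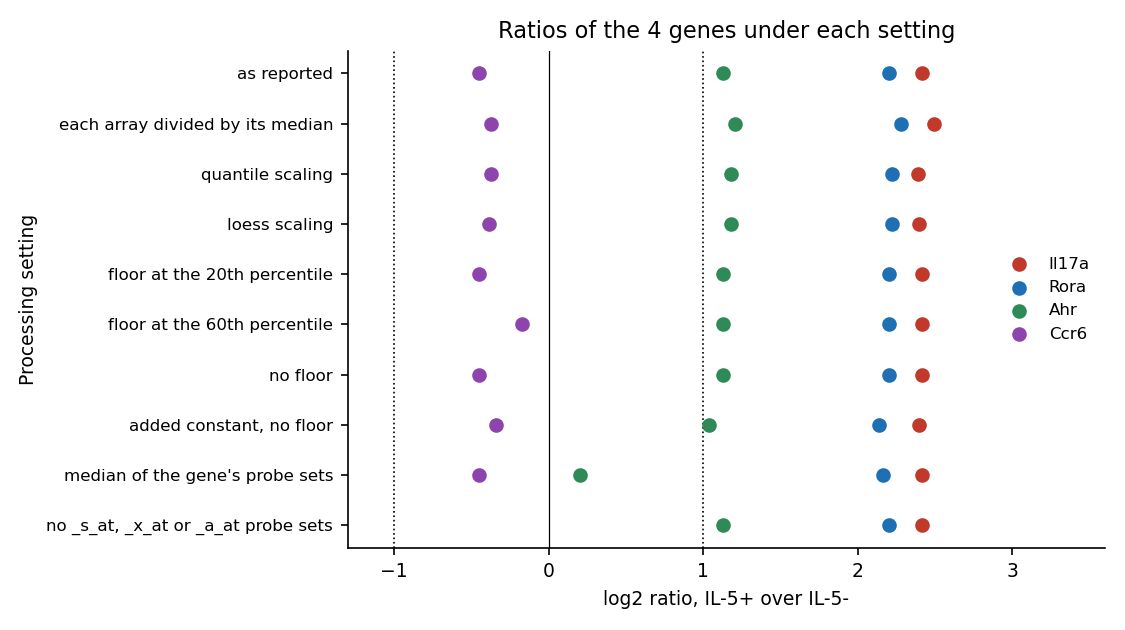
Log2 ratio (IL-5+ over IL-5-) of the brightest probe set of each of the 4 genes as reported and under 9 other processing settings; each point is 1 value, dotted lines mark 2-fold, and Ccr6 has no point in the last setting. Il17a stays between 2.39 and 2.50 and Rora between 2.14 and 2.28, whereas Ahr drops to 0.20 when the median of its probe sets is taken.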

How the data were processed

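Gene expression was measured with Affymetrix mouse arrays on 2 RNA samples, 1 per group. The authors deposited a linear intensity for each probe set on each array. GCOS, the Affymetrix scanner software, is the only tool in the submitters' processing notes, and its algorithm is not given in the sources used here. No detection calls were used. The trimmed means of the arrays were 496 and 498. Of 45037 probe sets, 34945 had exactly 1 symbol in the platform annotation (dated, but identical to RefSeq for the 34741 whose gene identifiers matched), 932 had several and 9160 were not listed.

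Signals under 36.3 were raised to it, and probe sets under it on both arrays got no ratio. The probe set with the highest mean log2 value stood for its gene. A 2-fold difference was counted, with no test. From each of 12 lists (142 genes, 16 of them without a named probe set), the named genes are all those 2-fold apart and the 3 brightest others. Il17ra, Arnt, Cyp1a1, Il1r1 and the marker genes were named outside this rule, after their values were seen. The members and lists were chosen with earlier results of these data known. Alternatives were 3 scalings, 3 treatments of dim signals and an added constant in their place, 2 thresholds and 2 choices of probe sets. Counting was checked on simulated arrays. The number of arrays limits the precision. Python 3.11.15, numpy 2.4.6, pandas 2.3.3, statsmodels 0.14.6 and matplotlib 3.10.9 were used.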

Additional observations from a re-analysis of the deposited data

How the results depend on the processing

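The 4 genes kept their direction under all alternatives that gave a value, and Il17a and Rora stayed at least 2-fold higher. The log2 ratio of Ahr was 0.20 with the median of its probe sets. No probe set of the 4 genes was 2-fold lower as reported, but 1 (the dim one of Ahr) was with a lower floor (the 20th percentile, 11.5), without any floor and after adding a constant, and 1 passed the 1.5-fold threshold. Of 39 other genes 2-fold apart that the rule named (markers of other cells were not recomputed), 27 stayed so under every alternative that gave a value and 0 changed sign. The rest included Arntl, at 0.47 with its probe set without suffix, and Tiparp, at 0.73 likewise. Of 108 list medians under the alternatives, 6 moved by more than the SD between probe sets, 5 of them of the IL-17 family ligands and 1 of the Th17-inducing receptors (-0.12), and 49 of 264 list counts moved by over 1.5 times. Against 374 higher and 526 lower genes, there were 1325 and 1572 with the lower floor, 183 and 226 with a floor of 112.8, 2057 and 2311 without one, 1035 and 1560 at 1.5-fold, and 91 and 143 at 3-fold. For probe sets (711 and 940), the same settings gave 2517 and 3022, 301 and 360, 4253 and 4788, 2136 and 2886, and 160 and 222. By construction, a lower floor gives more genes a ratio (16594 at the 20th percentile, against 13133) and raises dim signals less. A lower threshold counts smaller ratios among the same 13133 genes. Dividing by the array median balanced the calls (49.5% higher, against 41.6%). No paired analysis was possible because each group has 1 array.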
